A study of Mus musculus with 16 samples.

Results

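Estrogen signalling in the developing mouse epididymis was followed through 5 genes: Esr1 and Pgr, which encode the nuclear receptors for estrogen and progesterone, Sult1e1 and Cyp7b1, which encode enzymes that act on estrogens and related sterols, and Greb1, a gene known for its induction by estrogen. They are 5 of the 18193 genes that the array names by a single symbol, and every probe set annotated to them was taken, 14 of 45101: 3 for Esr1, 3 for Pgr, 1 for Sult1e1, 3 for Cyp7b1 and 4 for Greb1. RNA came from epididymides of wild-type CD-1 male mice, an outbred stock, dissected whole from time-mated litters at gestational days 12, 14, 16 and 18 (gd12, gd14, gd16 and gd18; Theiler stages 20, 22, 24 and 26) and at postnatal day 2 (pnd2; Theiler stage 27), with 3 arrays at each stage. The 16th array held RNA of 8 whole newborns, 4 males and 4 females, at postnatal day 0.5 (the newborn pool), for which no strain is stated in the labels. The sample labels describe the 6 samples of gd12 and gd14 as pools of size 3 and those of gd16, gd18 and pnd2 as not pooled, whereas the text for the whole series describes every sample as the paired organs of 1 animal, with no dam shared. This conflict was not settled, so stages may differ in how many animals an array averages, and pool size cannot be told apart from stage between gd14 and gd16.

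The epididymis forms from the Wolffian duct and the mesenchyme around it, under testicular androgens. Estrogens enter target cells freely, bind the receptor encoded by Esr1, and the hormone-bound receptor pair contacts DNA at estrogen response elements, inverted repeats of a short half-site. Male mice without Esr1 have dilated efferent ducts and reabsorb too little fluid on the way into the epididymis. The hormone itself is limited locally: the estrogen sulfotransferase Sult1e1 attaches a sulfate group that prevents receptor binding, and it draws that group from the sulfate donor PAPS, which the synthases Papss1 and Papss2 make. Cyp7b1 hydroxylates oxysterols and several androgen metabolites, some of which bind estrogen receptors.

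The bases before the annotated transcription starts are shown because an estrogen receptor recognises DNA by its letters, and the members differ in whether those letters lie close to their start. RefSeq promoter windows (assembly GRCm38.p6, 250 bases before each start, written in the direction of transcription) held 6 windows for 4 of the members, and Cyp7b1 had no entry. The full inverted repeat GGTCANNNTGACC was found in none of the 6 windows and in 21 of all 32851 windows of this length (0.0639%). The half-site GGTCA, searched on both strands (TGACC on the other), was found once for Sult1e1, once in the first and 2 times in the second Greb1 window, and in no Esr1 or Pgr window. It occurs in 35.2% of all such windows, so its presence in 3 of 6 is only a description of these letters. Binding was not tested. Capitals below mark the half-site. The windows are Esr1 chr10:4611739-4611988 (plus strand), Pgr chr9:8899583-8899832 (plus strand), Sult1e1 chr5:87591612-87591861 (minus strand), and Greb1 chr12:16800887-16801136 and chr12:16757240-16757489 (both minus strand). The second Esr1 window, which held neither motif, is not printed.
Esr1, first window: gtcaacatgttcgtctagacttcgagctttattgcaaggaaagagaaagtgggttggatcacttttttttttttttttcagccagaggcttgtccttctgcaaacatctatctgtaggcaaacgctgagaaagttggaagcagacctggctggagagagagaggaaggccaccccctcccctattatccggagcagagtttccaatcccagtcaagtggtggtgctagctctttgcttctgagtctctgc
Pgr: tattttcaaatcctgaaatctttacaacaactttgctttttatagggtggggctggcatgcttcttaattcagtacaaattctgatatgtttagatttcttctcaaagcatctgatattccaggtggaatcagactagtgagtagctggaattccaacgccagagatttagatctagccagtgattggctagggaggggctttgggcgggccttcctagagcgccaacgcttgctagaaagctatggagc
Sult1e1: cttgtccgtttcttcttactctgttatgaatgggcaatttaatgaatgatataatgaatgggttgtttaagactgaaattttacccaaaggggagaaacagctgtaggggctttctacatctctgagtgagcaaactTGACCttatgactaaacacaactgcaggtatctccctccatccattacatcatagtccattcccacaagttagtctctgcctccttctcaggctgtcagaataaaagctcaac
Greb1, first window: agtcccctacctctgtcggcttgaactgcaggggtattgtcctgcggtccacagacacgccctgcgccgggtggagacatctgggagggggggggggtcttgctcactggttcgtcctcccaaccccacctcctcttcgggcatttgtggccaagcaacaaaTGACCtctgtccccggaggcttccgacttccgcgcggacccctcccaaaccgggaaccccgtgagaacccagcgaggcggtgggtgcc
Greb1, second window: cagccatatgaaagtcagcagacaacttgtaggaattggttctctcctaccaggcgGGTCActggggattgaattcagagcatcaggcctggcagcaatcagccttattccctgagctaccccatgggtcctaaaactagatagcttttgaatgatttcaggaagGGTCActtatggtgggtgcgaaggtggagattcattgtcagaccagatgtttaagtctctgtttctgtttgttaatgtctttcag
In the Sult1e1 window the half-site begins 113 bases before the start. In the Greb1 windows it begins 88 bases before the first start, and 194 and 85 bases before the second.

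Each value is a linear hybridisation signal. On all 16 arrays the deposited signals averaged 500 once 2% of the probe sets were trimmed from each end. The number of arrays limits the precision, and probe sets differ in how brightly they bind, so no level is set against that of another probe set. The median of all probe sets was between 110.3 and 134 on 15 arrays and 81.24 on pnd2 replicate 3. That array also stood apart in 2 measures of RNA quality: its 3' to 5' signal ratio was 63.16 for Gapdh and 80.73 for Actb, against 4.333 to 7.18 and 2.404 to 4.141 on the other 14 epididymis arrays. Where leaving it out changed the call of a member probe set, both values are given. All 8 measured genes of duct epithelium and all 8 of duct mesenchyme reached the array median on at least 1 array of every stage. So did all 5 macrophage and all 4 endothelium markers, and at gd12 all 5 germ cell markers. Reaching the median in this way therefore does not identify the organ. Of the 14 member probe sets, 9 were tested, since they reached the median of the array they were read on in 3 or more epididymis samples. In all, 25981 probe sets did. The 5 untested ones (1 each for Esr1, Cyp7b1 and Greb1 and 2 for Pgr) are given as levels only. The Sult1e1 probe set passed through 7 arrays, all 6 of gd18 and pnd2 and 1 of gd16, so its passing this filter already required late signal.

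**Figure D1:**
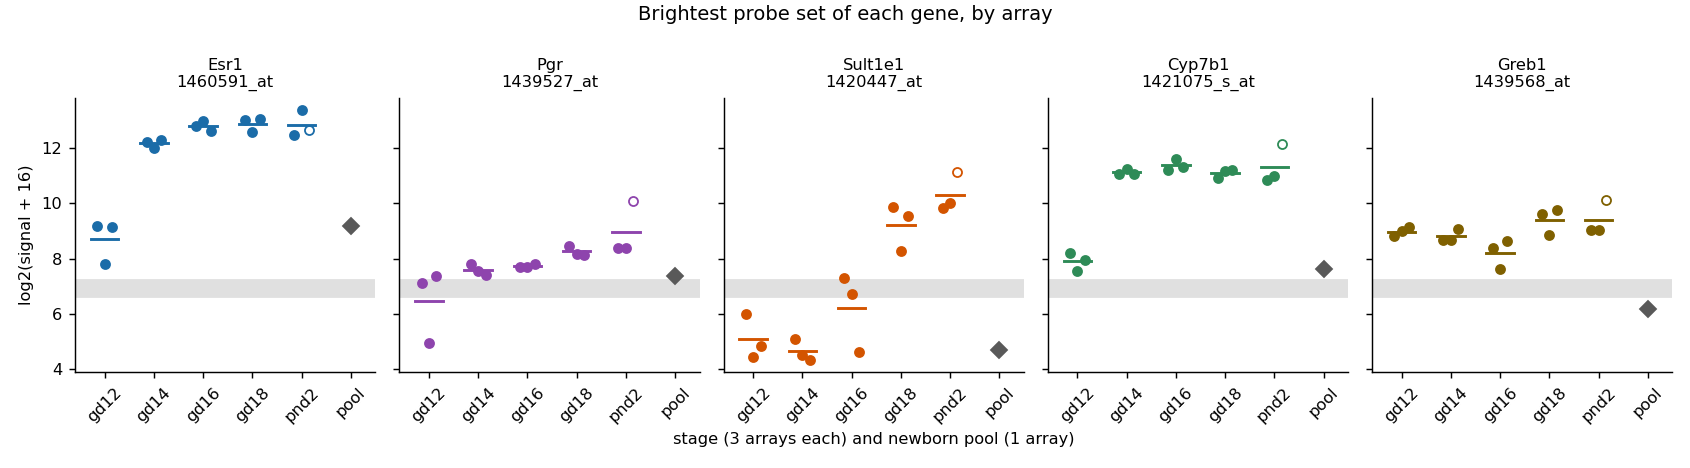
Level, as log2(signal + 16), of the brightest probe set of each gene on every array, by stage, with the newborn pool as a grey diamond, stage means as bars, pnd2 replicate 3 as an open circle and the range of the array medians as a grey band. Esr1 and Cyp7b1 are low on the 3 gd12 arrays and high on all later ones, Sult1e1 is high on the 6 gd18 and pnd2 arrays, and Greb1 lies above the pool on all 15.

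Esr1 was low at gd12 and high from gd14 onward. Its brightest probe set, 1460591_at, read 560.1, 207.8 and 546.7 at gd12. At gd14 it read 4770, 4169 and 5001, and at gd16 it read 7188, 8139 and 6410. The gd14 arrays lay well above the gd12 arrays, with no overlap (38.6% of all tested probe sets separated these 2 stages), and those of gd16 lay above those of gd14. At gd18 the values were 8429, 6230 and 8502, and at pnd2 they were 5780, 10620 and 6444. The last 3 stages overlapped throughout.

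In a limma fit over the 15 arrays, Esr1 was 11.1-fold higher at gd14 than at gd12 (log2 change 3.48 ± 0.31, SE, n = 3 per stage, Benjamini-Hochberg adjusted p = 1.69e-05). The second probe set, 1435663_at, read 644.7, 675.3 and 786 at gd14, against 86.21, 42.19 and 108.7 at gd12. It was 7.9-fold higher (2.98 ± 0.35, adjusted p = 0.000118), so both tested Esr1 probe sets rose over this interval. The second one reached the array median on 12 arrays and on 0 of 3 at gd12. Its passing the filter therefore already required signal after gd12. Both calls held under every alternative run, with log2 changes of 3.03 to 3.71 for the first and 2.45 to 3.23 for the second. The third probe set, 1421244_at, was dim, between 8.29 and 104.3 on all 15 epididymis arrays, with overlapping stages.

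After gd14, no interval between neighbouring stages gave an Esr1 call. Between gd16 and gd14 both tested probe sets had all 3 later arrays above the 3 earlier ones (20.3% of all tested probe sets separated the 2 stages in this way, in either direction), with log2 changes of 0.64 ± 0.31 and 0.78 ± 0.35, but the adjusted p was 0.996 and 0.927. The first of these passed only where the fit was restricted to the 6 arrays compared (adjusted p = 0.0229, with a range up to 1 over the alternatives). From gd16 on, the differences were small: 0.08 for gd18 against gd16 and -0.06 for pnd2 against gd18 on 1460591_at, with 95% intervals of -0.59 to 0.76 and -0.73 to 0.62. Over the whole course Esr1 was 17.6-fold higher at pnd2 than at gd12 on 1460591_at (4.14 ± 0.31, adjusted p = 5.54e-07) and 9.98-fold higher on 1435663_at (3.32 ± 0.35, adjusted p = 1.24e-05).

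Cyp7b1 was likewise low at gd12 and high from gd14 onward. Its probe set 1421075_s_at read 281, 173.1 and 228.8 at gd12. It read 2146, 2432 and 2151 at gd14, and 2348, 3161 and 2538 at gd16. It read 1943, 2289 and 2359 at gd18, and 1822, 2042 and 4566 at pnd2. The 3 gd12 arrays lay below all 12 later ones, and no later stage stood clear of its neighbours. Of all tested probe sets, 38.6% separated gd14 from gd12, in either direction. The 4566 came from pnd2 replicate 3.

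Cyp7b1 was 9.41-fold higher at gd14 than at gd12 (3.23 ± 0.29, adjusted p = 1.42e-05). On its second probe set, 1421074_at, the signal was 1896, 1905 and 1891 at gd14, against 207.8, 107.7 and 416.5 at gd12. The change there was 8.36-fold (3.06 ± 0.36, adjusted p = 0.000122). The 3 gd14 values lay close together and the 3 gd12 values far apart. Later intervals gave changes between -0.44 and 0.37 on both probe sets, none of them called. On 1421074_at all 3 gd16 arrays lay above those of gd14 and above those of gd18. Of all tested probe sets, 20.3% and 19.7% separated these pairs of stages, in either direction. At pnd2 against gd12 the changes were 3.43 ± 0.29 (10.8-fold, adjusted p = 1.36e-06) and 3.15 ± 0.36 (8.87-fold, adjusted p = 2.76e-05), and without pnd2 replicate 3 they were 3.02 and 2.88. The third Cyp7b1 probe set, 1446995_at, stayed between 1.34 and 46.7.

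Of the 9 tested member probe sets, 4 were called at gd14 against gd12, all higher and all from Esr1 and Cyp7b1, beside a background of 8.72% of all tested probe sets called in either direction and 5.08% called higher. Markers of other cell types moved over the same interval. The summed signal of 5 germ cell markers was 909.3 to 1385 at gd14, against 14750 to 21750 at gd12, and that of 6 markers of gonad supporting cells was 775.6 to 807.8 at gd14, against 3908 to 7119 at gd12. All 5 tested markers of each of these lists fell. Duct mesenchyme markers, 8 genes, summed to 91820 to 101900 at gd14, against 39340 to 48080 at gd12, with 5 of 8 higher and a median log2 change of 1.05, where the median over all tested probe sets was 0.07. For the 8 duct epithelium markers the sums were 11800 to 12750 at gd14, against 7303 to 8661 at gd12, with 3 of 8 higher. Erythroid markers summed to 26490 to 36320 at gd14, against 42150 to 64860 at gd12, with 2 of 5 lower, and those of the paramesonephric duct to 5250 to 6447 at gd14, against 9048 to 11130 at gd12, with 1 of 4 lower. Smooth muscle (5 markers, 2 higher) summed to 7589 to 11860 at gd14, against 2197 to 4570 at gd12, and macrophages (5 markers, 4 higher) to 7498 to 8947 at gd14, against 1679 to 3978 at gd12. Their part in the Esr1 and Cyp7b1 changes was not tested. In whole organs, a change in the number of cells of a type and a change in RNA per cell cannot be told apart.

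**Figure D2:**
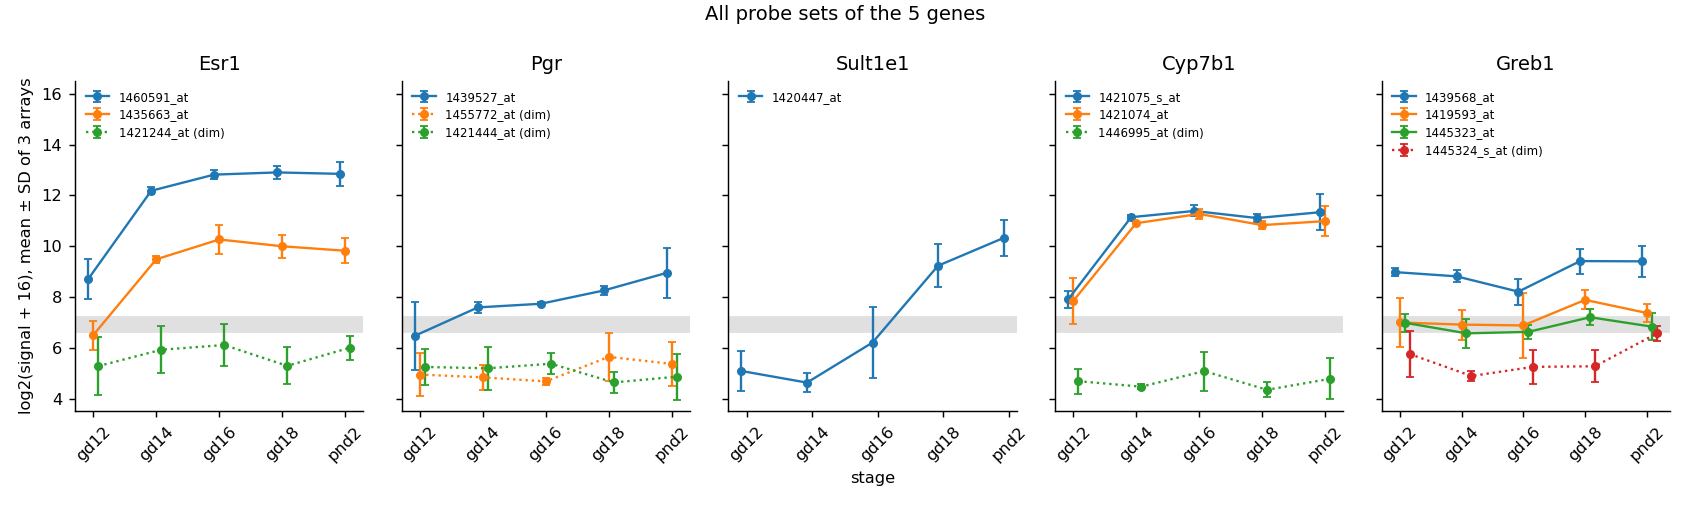
Mean log2(signal + 16) with SD of 3 arrays per stage for all 14 member probe sets, with 1 panel per gene, dotted lines for the 5 untested probe sets and a grey band for the range of the array medians. The tested Esr1 and Cyp7b1 probe sets are low at gd12 and high at the later 4 stages, while the means of the dotted ones do not rise above the band.

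Sult1e1, the estrogen sulfotransferase, was low through gd14 and high from gd18 onward. Its only probe set, 1420447_at, read 47.6, 5.67 and 12.46 at gd12, and 17.3, 6.81 and 3.95 at gd14. It read 139.8, 89.56 and 8.66 at gd16. At gd18 it read 927.6, 292.1 and 725.9, and at pnd2 894.7, 1016 and 2224. The 6 arrays of gd12 and gd14 were all below their array's median, and the gd16 arrays were spread widely. All 6 arrays of gd18 and pnd2 stood above the other 9. The share of all tested probe sets that split in this way is not given here, and the filter already required late signal.

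No neighbouring interval gave a Sult1e1 call. At gd18 against gd16 it was 8.1-fold higher, the second largest rise of all tested probe sets, with no overlap between the arrays (19.7% of all tested probe sets did not overlap there), but the adjusted p was 0.123 (3.02 ± 0.64), and it was 0.0264 without pnd2 replicate 3, when the background was 1.02%. Over the 28 alternatives this p was between 0.00732 and 0.483. The comparison of gd18 with gd14, which passes over gd16, was added after the data were seen. Its p-values therefore describe these values and give no independent support. There Sult1e1 was 24.2-fold higher (4.60 ± 0.64, adjusted p = 0.00157), the only one of the 9 member probe sets called, beside a background of 1.84% called and 1.19% called higher, and the call held under all 28 alternatives (adjusted p between 1.71e-05 and 0.0138). At pnd2 against gd12 it was 37.7-fold higher (5.24 ± 0.64, adjusted p = 4.93e-05), and 4.83 on the log2 scale without pnd2 replicate 3. The size of the fold depends on the constant of 16 added to each signal, since the early values lie near or below it: over all alternatives the log2 change was between 3.99 and 6.28. At pnd2 against gd18 the difference was 1.10 ± 0.64 (adjusted p = 0.32), and 0.69 without that array.

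The list of 13 genes for estrogen inactivation and metabolism held 7 tested genes, of which 3 were higher at pnd2 than at gd12 and 0 lower. Sult1a1, a phenol sulfotransferase that also accepts estrogens, read 343.9, 442 and 665.3 at pnd2, against 59.9, 18.51 and 12.28 at gd12. It was 11.5-fold higher (3.52 ± 0.39, adjusted p = 1.76e-05). All its gd12 values lay below their array medians, so its passing the filter already required signal after gd12. Papss2, which makes the sulfate donor, read 1139, 1417 and 1674 at pnd2, against 142.4, 366 and 299.9 at gd12 (5.27-fold, 2.40 ± 0.32, adjusted p = 0.000107), and it was also higher at gd18 than at gd14 (1.51 ± 0.32, adjusted p = 0.0247). Papss1, the other synthase, was 1.62-fold higher at pnd2 than at gd12 (0.69 ± 0.14, adjusted p = 0.00286). The list median was 0.69 where all tested probe sets had -0.14, and the background was 21.1% called and 10.3% called higher. The other sulfotransferases of the list, Sult2b1, Sult1c2 and Sult1d1, were not tested. The 4 tested genes with no call were Hsd17b4, Hsd17b11, Cyp1b1 and Nqo1. At gd14 against gd12 the list had 0 calls with all arrays and, without pnd2 replicate 3, 1 higher (Sult1a1) and 3 lower (Hsd17b4, Hsd17b11 and Cyp1b1, at -0.38, -0.54 and -0.47), beside a background of 24.2%. At gd18 against gd14 it had 1 higher (Papss2) with all arrays and 4 higher without that array, beside a background of 6.47%.

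**Figure D3:**
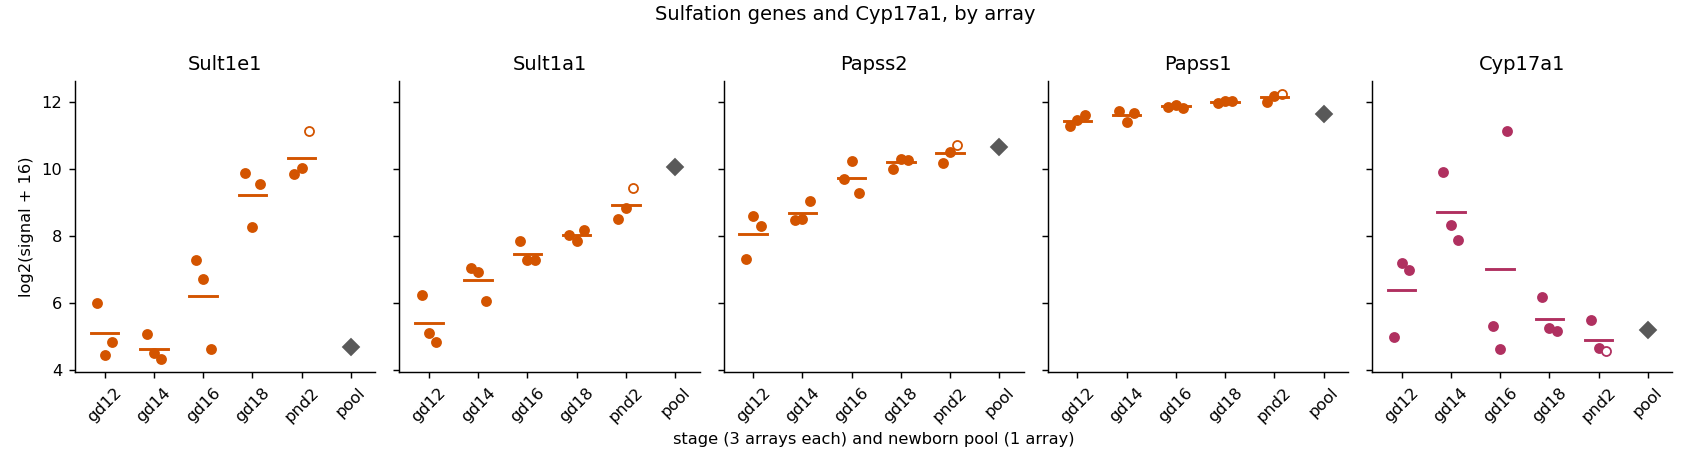
Level, as log2(signal + 16), of Sult1e1, Sult1a1, Papss2, Papss1 and Cyp17a1 on each of the 15 epididymis arrays, by stage, with stage means as bars, pnd2 replicate 3 as an open circle and the newborn pool as a grey diamond. The first 4 are higher at pnd2 than at gd12 on every array, and Cyp17a1 is high on single arrays of gd14 and gd16.

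Leydig cells of the adult mouse testis make Sult1e1, and the markers of steroid-making cells are given beside it. Their sum over 4 genes was 438.4 to 544.4 at gd12, 627.1 to 2044 at gd14, 175.9 to 3869 at gd16, 105.6 to 475.6 at gd18 and 167.9 to 276.4 at pnd2. At pnd2, 3 of the 4 were below the array median on all 3 arrays, and at gd18 2 of the 4. Cyp17a1, which encodes a steroidogenic enzyme of Leydig cells, was 2211 on gd16 replicate 9, where Sult1e1 was 8.66, and between 7.53 and 55.87 on the 6 gd18 and pnd2 arrays, where Sult1e1 was 292.1 to 2224. The part of such cells in the Sult1e1 values was not tested. Markers of other cell types moved over the gd18 against gd14 interval as well. Smooth muscle markers summed to 37170 to 38690 at gd18, against 7589 to 11860 at gd14 (3 of 5 higher), and erythroid markers to 509.7 to 1352 at gd18, against 26490 to 36320 at gd14 (4 of 5 lower). Duct epithelium markers summed to 15220 to 16420 at gd18, against 11800 to 12750 at gd14 (1 of 8 higher), and to 23050 to 26420 at pnd2. Germ cell markers were lower for 2 of 5 and those of the paramesonephric duct for 1 of 4. Their part in the Sult1e1 result was not tested.

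Pgr, the progesterone receptor and in many tissues a target of estrogen receptor alpha, was dim at first and somewhat brighter at the end. The tested probe set, 1439527_at, read 121.8, 14.39 and 150.2 at gd12. It read 208.2, 172.3 and 152.5 at gd14, and 193.3, 189.1 and 208 at gd16. It read 337, 274 and 263.6 at gd18, and 316.5, 316.4 and 1072 at pnd2. The arrays of gd14 and gd16 overlapped, and those of gd18 lay above both. Of all tested probe sets, 19.7% separated gd18 from gd16, in either direction. For Pgr, 1 array at each end stood apart, gd12 replicate 14 at the low end and pnd2 replicate 3 at the high end.

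Pgr was 5.57-fold higher at pnd2 than at gd12 (2.48 ± 0.54, adjusted p = 0.00483). Without pnd2 replicate 3 the log2 change was 1.91 (adjusted p = 0.00806), and without gd12 replicate 14 it was 1.71 (adjusted p = 0.0147). With only the 6 arrays of those stages in the fit the call was lost (adjusted p = 0.109). No single interval gave a call: gd14 against gd12 was 1.12 ± 0.54 (adjusted p = 0.244), gd16 against gd14 was 0.14 ± 0.54, gd18 against gd16 was 0.52 ± 0.54 and pnd2 against gd18 was 0.69 ± 0.54. The last of these was 0.12 without pnd2 replicate 3. The other Pgr probe sets, 1455772_at and 1421444_at, stayed between 4.58 and 70.86 and between 2.83 and 43.56, so the Pgr result rests on 1 probe set of 3.

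Greb1, induced by estrogen in breast cells and a cofactor of the receptor there, had no call over the interval of the Esr1 step. Its probe sets 1419593_at and 1445323_at reached the array median on 10 and 6 of the 15 arrays. The brightest, 1439568_at, reached it on all 15, as did 1460591_at of Esr1 and 1421075_s_at of Cyp7b1. This brightest Greb1 probe set read 433.3, 491.4 and 548.3 at gd12. It read 387.4, 396.4 and 528 at gd14, and 317.1, 181.8 and 376.5 at gd16. It read 775.1, 444.7 and 849.5 at gd18, and 511.7, 512.6 and 1099 at pnd2. The lowest stage was gd16, whose 3 arrays lay below all arrays of the other 4 stages. Of all tested probe sets, 20.3% separated gd16 from gd14 and 19.7% separated gd18 from gd16, in either direction. On 1419593_at and 1445323_at the arrays overlapped in both of these comparisons.

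For Greb1, gd14 against gd12 gave a log2 change of -0.17 ± 0.34 (adjusted p = 0.841), with a 95% interval of -0.89 to 0.55. At gd18 against gd16 the arrays did not overlap, as for 19.7% of all tested probe sets. Greb1 was 2.3-fold higher there (1.20 ± 0.34), but the adjusted p was 0.331. Without pnd2 replicate 3 it was 0.0364, and over the alternatives it was between 0.0281 and 0.909. At pnd2 against gd12 the change was 0.42 ± 0.34 (adjusted p = 0.385), and 0.07 without pnd2 replicate 3. The probe set 1419593_at ran from 26.67 to 295.3 and 1445323_at from 49.58 to 158.4 over the 15 arrays, with no call in any comparison, and 1445324_s_at stayed between 9.37 and 100.5. A moderated F test over the 5 stages gave adjusted p values of 0.0669, 0.518 and 0.549 for the 3 tested Greb1 probe sets.

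**Figure D4:**
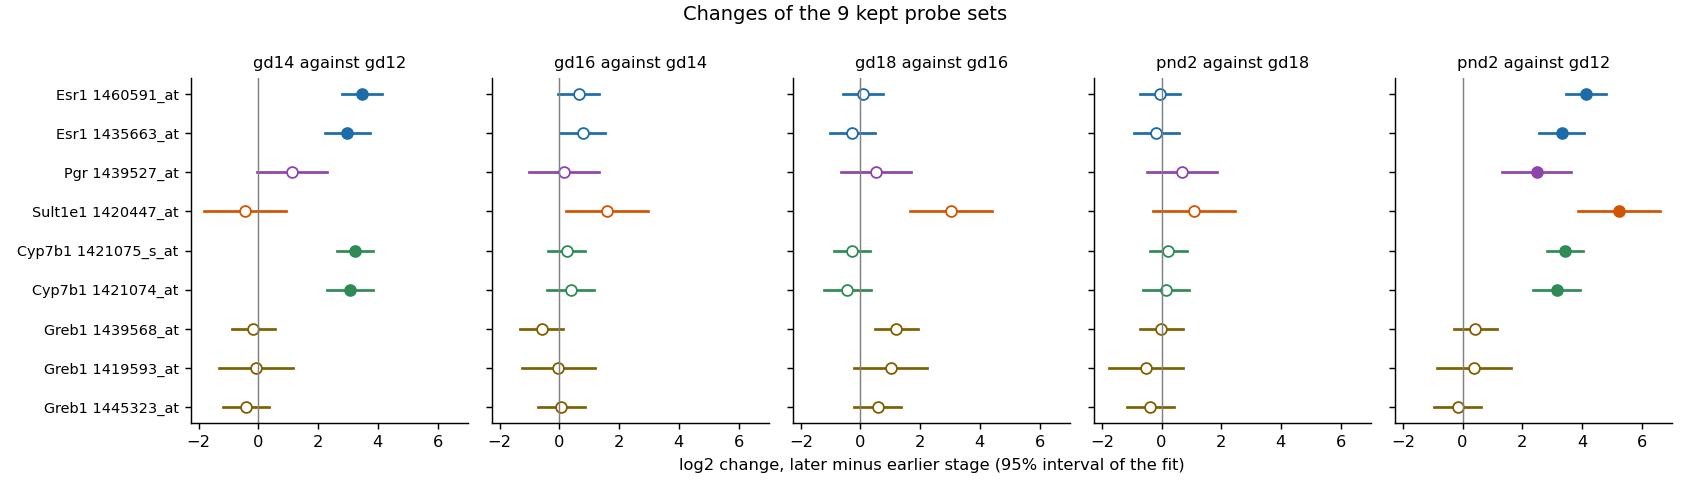
Log2 change, later minus earlier stage, of the 9 tested member probe sets over the 4 neighbouring intervals and over the whole course, with 95% intervals and filled symbols where the adjusted p was under 0.05. Filled symbols occur at gd14 against gd12 (Esr1 and Cyp7b1, 2 probe sets each) and at pnd2 against gd12 (these 4, Pgr and Sult1e1).

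Over the whole course, 6 of the 9 tested member probe sets, from 4 of the 5 genes, were higher at pnd2 than at gd12 and 0 were lower, beside a background of 21.1% called and 10.3% called higher. That F test called 6 of 9, beside a background of 20.9%. It gave adjusted p values between 1.46e-06 and 5e-05 for the Esr1, Cyp7b1 and Sult1e1 probe sets and 0.0343 for Pgr. With 1 replicate left out it called 5 to 7: Pgr lost its call in 9 of 15 cases, each time a gd14, gd16 or gd18 array was omitted (adjusted p up to 0.0577), and 1439568_at of Greb1 gained one without pnd2 replicate 3 (0.0163) or gd18 replicate 5 (0.0413). None of the 9 was called at gd16 against gd14, at gd18 against gd16 or at pnd2 against gd18, where the backgrounds were 0.0616%, 0.142% and 0.558%. At an unadjusted p under 0.05 the 9 gave 2, 2 and 0 in these intervals: 1435663_at of Esr1 and Sult1e1 in the first, and Sult1e1 and 1439568_at of Greb1 in the second. Over all tested probe sets the shares at that threshold were 5.17%, 6.3% and 20.5%. Whether the courses of any 2 genes differed was not tested. Over the same course all 5 tested markers of germ cells, of gonad supporting cells and of erythroid cells were lower, 5 of 8 of duct epithelium and 5 of 8 of duct mesenchyme were higher, and 4 of 5 of smooth muscle and 4 of 5 of macrophages were higher. Their part in the member changes was not tested.

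Other genes of the pathway were counted in lists. Of the other estrogen receptors, Esr2 (estrogen receptor beta) read between 2.8 and 58.72 on all 15 arrays and was not tested, nor was Gper1, the membrane estrogen receptor. Cyp19a1 (aromatase) was not analysed here. Of the estrogen-related orphan receptors, Esrrg was 3.16-fold higher at pnd2 than at gd12 (1.66 ± 0.26, adjusted p = 0.000422). Among the 7 tested coregulators and partner factors (list median 0.54), 3 were higher at pnd2 than at gd12 and 1 lower, beside the background of 21.1%: the coactivator Ncoa1 (1.14 ± 0.25), the corepressor Nrip1 (1.45 ± 0.27) and Gata3 (2.25 ± 0.45), a factor that acts with the receptor in breast cells. Tfap2c, which has the same role there and is also made by germ cells, was 15.6-fold lower (-3.96 ± 0.50, adjusted p = 5.9e-05). Without pnd2 replicate 3, Phb2, a repressor of the receptor, was lower as well (-0.60, adjusted p = 0.00498). Of the 5 tested genes for estrogen synthesis, 0 were called in any comparison in either direction. The list median was -1.07 at pnd2 against gd12, where all tested probe sets had -0.14. That median was the value of Hsd17b12, which was -0.06 without pnd2 replicate 3. Cyp17a1, Star and Hsd3b1 of this list are also the tested markers of steroid-making cells.

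Genes known to respond to estrogen in uterus and breast cells formed a list of 14. Of the 10 tested, 2 were higher and 0 lower at gd14 than at gd12, with a list median of 0.63 beside 0.07 for all tested probe sets. The background there was 8.72% called and 5.08% called higher. Cxcl12, a chemokine, read 4128, 4067 and 4412 at gd14, against 1804, 1812 and 1248 at gd12 (1.38 ± 0.23, adjusted p = 0.00161). Igf1, a growth factor, read 3637, 2991 and 4190 at gd14, against 2250, 1295 and 1496 at gd12 (1.12 ± 0.27, adjusted p = 0.0174). Without pnd2 replicate 3 the count was 8 higher and 1 lower, beside a background of 24.2%. The 6 further genes called higher there were Ctsd, Xbp1, Ccnd1, Igfbp4, Wnt4 and Ramp3, with log2 changes between 0.30 and 1.22. At pnd2 against gd12 only Cxcl12 (2.11 ± 0.23) and Igf1 (2.45 ± 0.27) of the 10 were higher, and 0 were lower. The background for that comparison was 21.1% called and 10.3% called higher. Without pnd2 replicate 3, 6 were higher and 0 lower, beside a background of 28.4%. Cxcl12 and Igf1 are made by mesenchyme, and 5 of the 8 mesenchyme markers were higher over the same interval. Their part in the result was not tested.

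For the calls below, the background at gd14 against gd12 was 8.72% of all tested probe sets. It was 1.84% at gd18 against gd14 and 21.1% at pnd2 against gd12. Without pnd2 replicate 3 these were 24.2%, 6.47% and 28.4%. Of the 4 tested genes for oxysterol and cholesterol hydroxylation beside Cyp7b1, 2 were higher at pnd2 than at gd12 (list median 0.33). Cyp27a1, which makes one of the oxysterols that Cyp7b1 hydroxylates, was at 1.54 ± 0.40 (adjusted p = 0.0138). Hsd3b7, which acts on the hydroxylated product, was at 0.77 ± 0.19 (adjusted p = 0.0121). Neither was called at gd14 against gd12, the interval of the Cyp7b1 step, with all arrays, and Hsd3b7 was without pnd2 replicate 3 (0.50, adjusted p = 0.0358). Of the 5 tested genes that progesterone receptor regulates in uterus (list median -0.64 at pnd2 against gd12), Hand2 was 2.09-fold higher at gd14 than at gd12 (1.06 ± 0.20, adjusted p = 0.00369) and 2.51-fold lower at gd18 than at gd14 (-1.33 ± 0.20, adjusted p = 0.00281). Fkbp5, a chaperone also induced by androgens and glucocorticoids, was 1.88-fold lower at pnd2 than at gd12 (-0.91 ± 0.27, adjusted p = 0.0254). Of the fluid transport genes that depend on Esr1 in efferent ducts, 5 were tested (list median 0.81 at pnd2 against gd12). Car2, a carbonic anhydrase, was 2.3-fold lower at pnd2 than at gd12 (-1.20 ± 0.31, adjusted p = 0.0139), and the water channel Aqp1 was at 1.15 ± 0.40 without a call (adjusted p = 0.054). Without pnd2 replicate 3, Aqp1 was called higher (1.68, adjusted p = 0.000654). The glucocorticoid receptor gene Nr3c1, the only other tested steroid receptor, was higher at gd14 than at gd12 (1.65 ± 0.21, adjusted p = 0.000198). Akr1c14, which interconverts dihydrotestosterone metabolites, was the 1 called of 2 tested genes for androgen activation (1.89 ± 0.42 at pnd2 against gd12, adjusted p = 0.0054), but without pnd2 replicate 3 its probe set did not reach the array median on enough arrays to be tested.

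Against the single newborn pool, which has no replicate and allows no test, the members split. The 3 gd12 arrays of Esr1 on 1460591_at lay below the pool signal of 560.6, 1.38-fold on average, although 1 of them read 560.1, and all 12 later arrays lay above it, by 8.06-fold at gd14, 12.5-fold at gd16, 13.3-fold at gd18 and 12.8-fold at pnd2. The other tested Esr1 probe set, 1435663_at, was 1.25-fold above the pool at gd12, with 2 of 3 arrays above, and 9.86- to 16.9-fold above it later. Cyp7b1 on 1421075_s_at was 1.21-fold higher at gd12, with 2 of 3 arrays above the pool signal of 182.4, and 11.1- to 13.5-fold higher at the later stages. Sult1e1 differed little from its pool signal of 9.38 at gd12 and gd14 (0.42 and -0.04 on the log2 scale) and was 23.6-fold higher at gd18 and 50.5-fold higher at pnd2. A pool signal this low makes those folds depend on the added constant.

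Pgr was 1.88-fold lower at gd12 than in the pool, whose signal was 150.7, and its 12 later arrays lay above the pool, by 2.96-fold at pnd2. That fold includes pnd2 replicate 3 at 1072, where replicates 1 and 2 read 316.5 and 316.4. Greb1 on 1439568_at lay above its pool signal of 56.19 on all 15 epididymis arrays, from gd12 on (2.81 on the log2 scale at gd12, 3.23 at pnd2). In all, 22.1% of the tested probe sets had all 15 arrays above the pool. The pnd2 mean was at least 2-fold above the pool for 8 of the 9 tested member probe sets, and for 7 without pnd2 replicate 3, beside a background of 16.3%. The exception with all arrays was 1445323_at of Greb1, at -0.24 on the log2 scale. The pool held RNA of whole bodies of both sexes, with adipocyte marker Adipoq at 7393, against 1.64 to 20.57 on the epididymis arrays.

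**Figure D5:**
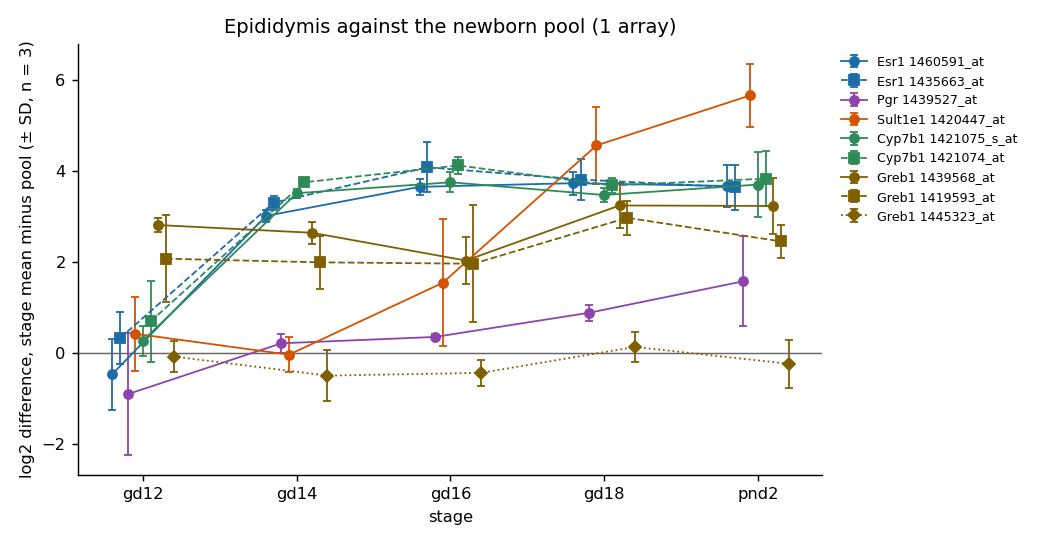
Stage mean minus newborn pool, in log2 units with SD of 3 arrays, for the 9 tested member probe sets, with 0 as the level of the pool. Greb1 on 1439568_at is above 0 at all 5 stages and on 1445323_at between -0.5 and 0.13, Esr1 on 1460591_at and Cyp7b1 on 1421075_s_at reach 3.01 and 3.51 at gd14, and Sult1e1 reaches 4.56 at gd18.

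The genes whose levels were most like each member over the 15 arrays are named as a description, with no test. For Esr1 they were Cyp2d22 (Pearson r = 0.984), Col12a1 (0.984), Moxd1 (0.977), Vldlr (0.974) and Lurap1l (0.974). For Cyp7b1 they were Agtr2 (0.977), Antxr1 (0.976), Cybrd1 (0.971), Plcl1 (0.971) and Apcdd1 (0.97). Over the 14 arrays without pnd2 replicate 3 these 10 values lay between 0.969 and 0.986. For Sult1e1 they were B4galnt2 (0.958), Kcnk1 (0.948), Lcn2 (0.947), Maob (0.944) and Defb29 (0.938), the last a defensin gene. For Pgr they were Samd9l (0.955), Cltrn (0.942), C2 (0.939), Pou3f3 (0.937) and Dpp4 (0.935), of which C2 and Pou3f3 were at 0.913 and 0.906 over the other 14 arrays. Greb1 had no close match: Arap2 (0.856), Hopx (0.834), Ahcyl2 (0.823), Exoc6 (0.804) and Hmgcs1 (0.801) came first. Over 14 arrays these values lay between 0.703 and 0.808, and Arap2, at 0.791, ranked 6. The arrays share stage, scaling and RNA quality, all of which enter these values.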

How the data were processed

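RNA of 15 epididymis samples and 1 newborn pool was measured on Affymetrix expression arrays after 2 rounds of amplification, per the labels. The deposited intensities, 1 linear signal per probe set and array, came from GCOS per the submitters' processing notes. No source used here gives its version, the signal algorithm, detection calls or a genome build.

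Values were taken as log2(signal + 16). Of 45101 probe sets, 64 were controls and 25981 reached the median of their own array on 3 or more of the 15 arrays. Probe sets were named from the platform annotation (34945 with 1 symbol, 932 with several, 9160 not listed), and all 5 member symbols were in the reference gene table. The comparisons used limma 3.58.1 (R 4.3.3) with 1 mean per stage, an intensity trend and Benjamini-Hochberg adjustment within each comparison, called at 0.05. The scripts were tested on simulated data. All member probe sets were named, list genes where called, and per member the 5 genes with the highest Pearson r. Of 79 pathway genes, 68 were on the array with 1 symbol and 49 were tested, each by its brightest probe set. The members and lists were chosen with earlier results of these data known. The labels give no batch. The p-values measure the spread between samples of the same stage, pooled over all stages in the fit and moderated by the intensity trend.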

Additional observations from a re-analysis of the deposited data

How the results depend on the processing

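No paired analysis was possible because the replicate numbers in the labels run through all stages and no 2 stages share one. The Esr1 and Cyp7b1 calls at gd14 against gd12 and the Esr1, Cyp7b1 and Sult1e1 calls at pnd2 against gd12 were kept under every alternative run, and no member result with a call changed direction. Counts over all tested probe sets moved much more, and the cause was not tested unless stated. At gd14 against gd12, 2265 probe sets were called, and 5895 with array quality weights, 4837 with weights by pooled or single-animal sample (1.57 for gd12 and gd14, 0.74 for the later stages), 5054 with only the 6 arrays compared, 4474 without 3 arrays (pnd2 replicate 3, and gd14 replicate 10 and gd16 replicate 9 with high Cyp17a1) and 927 at the stricter threshold (adjusted p under 0.01 and 2-fold). At gd16 against gd14, 16 were called, and 28 with quantile normalization, 27 with no intensity trend, 471 with array weights, 383 with the 6 arrays, 35 without the 3 arrays and 6 at the stricter threshold. At gd18 against gd16, 37 were called, and 56 with quantile normalization, 18 with a constant of 1, 438 with array weights, 8 with pooled-sample weights, 281 with the 6 arrays and 8 at the stricter threshold. At pnd2 against gd18, 145 were called, and 71 with median centring, 236 with a constant of 64, 65 with no filter, 73 with the brightest probe set per gene, 864 with array weights, 4 with pooled-sample weights, 0 with the 6 arrays, 219 without the 3 arrays and 2 at the stricter threshold. At pnd2 against gd12, 5476 were called, and 3362 with the brightest probe set per gene, 1456 with the 6 arrays and 2422 at the stricter threshold. At gd18 against gd14, added after seeing the data, 477 were called, and 2438 with array weights, 2133 with the 6 arrays, 894 without the 3 arrays and 179 at the stricter threshold. The F test called 5440, and 3239 with the brightest probe set per gene and 10008 with array weights.

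Leaving out each replicate in turn gave 1250 to 6183 calls at gd14 against gd12, 6 to 187 at gd16 against gd14, 7 to 260 at gd18 against gd16, 3 to 816 at pnd2 against gd18, 3667 to 7267 at pnd2 against gd12, 199 to 1654 at gd18 against gd14 and 3636 to 10026 in the F test. Without pnd2 replicate 3 these were 6183, 187, 260, 456, 7267, 1654 and 10026. Among the members, the count at gd14 against gd12 was 4, and 2 with the brightest probe set per gene, by construction. The 0 at gd16 against gd14 became 1 with the 6 arrays (Esr1, adjusted p = 0.0229). The 0 at gd18 against gd16 became 1 with a constant of 64 (Sult1e1, 0.0429), 2 with array weights (Sult1e1, 0.00732, and Greb1, 0.0281), 1 with the 6 arrays (Sult1e1, 0.0496), and 0 to 2 with a replicate left out, 2 being without pnd2 replicate 3. The 1 at gd18 against gd14 became 2 with the 6 arrays (Esr1, 0.00596). Pgr was called at gd14 against gd12 with array weights (0.0426). The median change of all tested probe sets was -0.16 at pnd2 against gd18 and -0.14 at pnd2 against gd12, which median centring removes, and no member call changed with it. Of 189 differences from the newborn pool recomputed, 34 moved by over 1 SD, most of them with a constant of 64 (20) or 1 (10). None of these 34 changed sign, and 6 others did, by 1 SD or less. Low signals limit the Sult1e1 folds, and no detection calls were used here.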
